A study of Mus musculus with 4 samples.

Results

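Chromatin accessibility was measured by ATAC-seq in NMuMG, a mouse epithelial cell line derived from normal mammary gland and much used to study the epithelial-mesenchymal transition (EMT). In this assay the Tn5 transposase inserts adapters into DNA that is not covered by nucleosomes, and piled-up reads are called as peaks. The regions described here are distal elements listed after TGFβ treatment and also in the 10 min experiment, but not in the vehicle list of cells in complete medium. They were chosen by their calls in 3 deposited peak lists, after intervals under 150 bp had been dropped and neighbours with gaps under 1000 bp had been merged. A region of the TGFβ list was taken when it overlapped a region of the 10 min list by at least 1 bp, overlapped no vehicle region, and overlapped no annotated transcription start site (TSS) with 1000 bp on either side. This gave 5081 shared distal regions among 38532 regions of the TGFβ list, or 13.2% (95% Wilson interval 12.9 to 13.5%).

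The vehicle list came from cells kept in complete medium and given vehicle for 2 h, and the TGFβ list from cells in the same medium given TGFβ1 at 5 ng/ml for 2 h. The 10 min experiment used cells starved of both serum and insulin during 6 h before they received vehicle or TGFβ1 at 5 ng/ml for 10 min. A single list is labelled for the vehicle and the TGFβ sample of the 10 min experiment, and its own name carries the TGFβ treatment alone. Whether its peaks were called from the TGFβ library or from both libraries was not settled, so a 10 min call is read here as a call in that experiment and not as a response to TGFβ. For the TGFβ sample at 10 min a label with the time of the other experiment conflicts with the title, which was followed. The 4 conditions are covered by 3 lists without replicates, so no comparison between treatments has a replicate check, and time, starvation and medium cannot be told apart between the 10 min list and the others. The lists held 19648 (vehicle), 38532 (TGFβ) and 26732 (10 min) refined regions. The lists hold no read counts. Read totals of the libraries are stated with the study but were not used here, so no depth is set beside the calls. Of 10 epithelial marker genes, the vehicle list had a region at the TSS of 3, and the TGFβ and 10 min lists each had one at the TSS of 4. Cdh1, Krt8, Krt18, Cldn4 and Grhl2 were among these, while Epcam, Cldn3, Cldn7, Esrp1 and Ovol1 had none in any list. Of 4 fibroblast markers Col1a1 had a TSS region in every list, of 3 endothelial markers Kdr and of 3 adipocyte markers Cidec had one in the TGFβ list alone, and 4 haematopoietic markers had none.

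Distal accessible regions of this kind are often enhancers, stretches of DNA that bind transcription factors and act on promoters at a distance. TGFβ signals through a receptor pair that phosphorylates SMAD2 and SMAD3, which enter the nucleus with SMAD4 and recognise the short SMAD box, usually beside other factors. AP-1, the dimer of JUN and FOS family proteins, binds many epithelial enhancers and is induced by growth factors in serum as well as by TGFβ. CTCF is an architectural protein that occupies a long motif, anchors chromatin loops with cohesin and is bound at much the same sites in many cell types.

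The sequences of 7 of the shared regions are printed to show the letters behind the motif counts given further on. Each is the 201 bp around the centre of the region in the TGFβ list, from mouse genome build mm9, with matches to the AP-1, SMAD box, CTCF and ETS motifs in capitals. Only 58 of the 5081 regions had a score at the cap of 1000 in both lists. The Cpeb2 window belongs to such a region of a gene rich in shared regions, and the Gm10941 and Vegfa windows to such regions that held AP-1 and the SMAD box together. The Smad3 and Ccnd1 windows come from the highest-scoring shared regions of those genes with an AP-1 or SMAD box match in the window, outside untranslated exons. The Mettl2 and Twf2 windows come from the shared regions with the highest sum of both scores that had a CTCF match in the window. Apart from the Cpeb2 window, these were selected after their values were seen. The gene named is that of the nearest protein-coding TSS.
Cpeb2, chr5:43415342-43415542, + strand: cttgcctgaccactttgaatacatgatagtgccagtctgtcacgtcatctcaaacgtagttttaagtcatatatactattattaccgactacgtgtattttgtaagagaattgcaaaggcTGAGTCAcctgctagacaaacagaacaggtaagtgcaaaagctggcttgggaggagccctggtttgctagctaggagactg
Smad3, chr9:63641594-63641794, + strand: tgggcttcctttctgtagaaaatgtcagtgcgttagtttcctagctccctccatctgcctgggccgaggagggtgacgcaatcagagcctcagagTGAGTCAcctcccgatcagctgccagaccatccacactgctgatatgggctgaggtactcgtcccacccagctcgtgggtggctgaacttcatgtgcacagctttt
Ccnd1, chr7:152180282-152180482, + strand: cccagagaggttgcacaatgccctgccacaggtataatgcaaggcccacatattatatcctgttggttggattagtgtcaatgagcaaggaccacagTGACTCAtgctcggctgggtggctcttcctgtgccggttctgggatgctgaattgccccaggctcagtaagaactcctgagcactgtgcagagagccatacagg
Gm10941, chr10:76714793-76714993, + strand: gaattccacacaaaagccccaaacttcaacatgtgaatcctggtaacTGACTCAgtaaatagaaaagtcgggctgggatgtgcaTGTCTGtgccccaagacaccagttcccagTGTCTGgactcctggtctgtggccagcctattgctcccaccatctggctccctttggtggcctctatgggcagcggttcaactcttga
Vegfa, chr17:46141230-46141430, + strand: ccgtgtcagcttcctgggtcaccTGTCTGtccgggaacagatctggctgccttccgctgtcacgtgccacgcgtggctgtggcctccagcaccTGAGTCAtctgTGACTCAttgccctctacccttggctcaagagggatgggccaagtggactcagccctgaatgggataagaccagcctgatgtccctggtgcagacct
Mettl2, chr11:104985374-104985574, + strand: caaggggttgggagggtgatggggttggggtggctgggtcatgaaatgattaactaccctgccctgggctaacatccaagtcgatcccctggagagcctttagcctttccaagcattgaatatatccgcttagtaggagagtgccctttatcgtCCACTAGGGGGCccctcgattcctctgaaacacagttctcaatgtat
Twf2, chr9:106114290-106114490, + strand: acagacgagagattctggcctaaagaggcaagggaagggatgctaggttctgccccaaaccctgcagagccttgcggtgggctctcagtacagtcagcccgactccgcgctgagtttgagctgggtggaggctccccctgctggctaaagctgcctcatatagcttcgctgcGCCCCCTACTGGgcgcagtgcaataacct

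The first 3 windows each held 1 AP-1 match and no SMAD box. Near Gm10941 1 AP-1 match stood with 2 SMAD boxes, and near Vegfa, the main angiogenic growth factor, 2 AP-1 matches stood with 1 SMAD box. The last 2 windows held a CTCF match and none of the other 3 motifs.

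Distal regions made up 27584 of the regions in the TGFβ list, and 18.4% of them (17.97 to 18.9%) were shared with the 10 min list and absent from the vehicle list. Of the 17829 distal TGFβ regions that the vehicle list lacked, 28.5% (27.8 to 29.2%) were in the 10 min list. The remaining 12748, called TGFβ-only regions here, were in neither of the other lists. Among the distal TGFβ regions that the vehicle list did hold, 84.5% (83.7 to 85.2%) were in the 10 min list, which left 8239 regions of all 3 lists and 1516 regions of the vehicle and TGFβ lists alone. These shares follow from the rule and from the length of the lists, and are given as a description. With the TGFβ and 10 min lists each reduced to as many of their highest-scoring regions, the wider first among ties, as the vehicle list held, there were 1115 shared regions and the share was 27.7%.

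**Figure D1:**
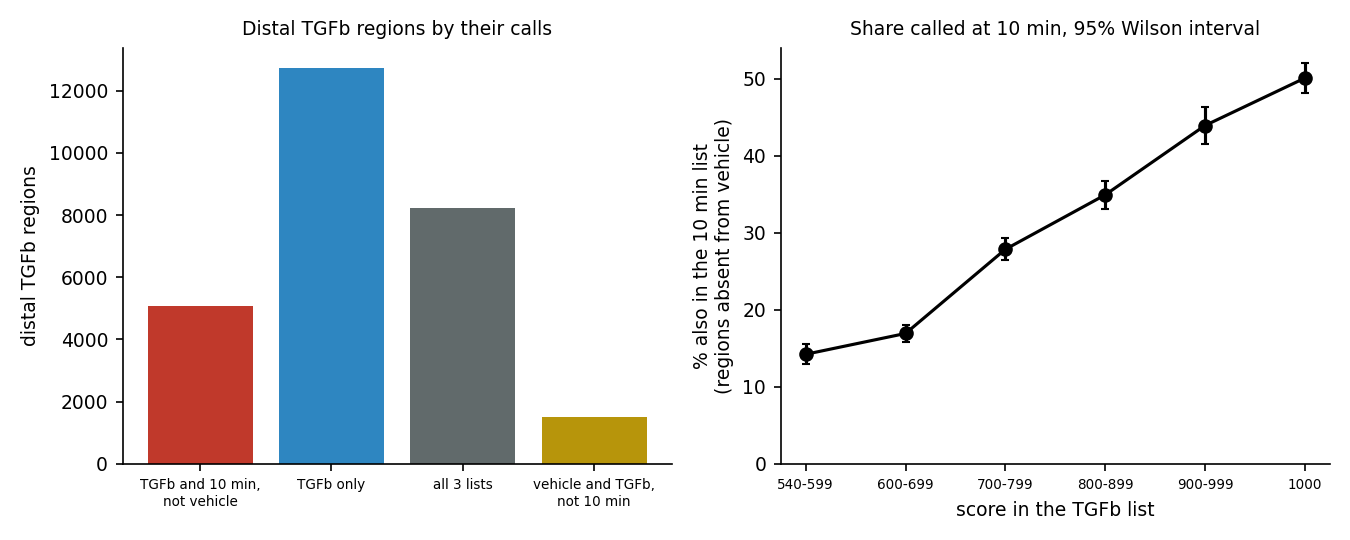
Left, the number of distal TGFβ regions in each class of calls, 5081 of them shared with the 10 min list and absent from the vehicle list. Right, for distal TGFβ regions absent from the vehicle list, the percent also in the 10 min list (95% Wilson interval) by the score in the TGFβ list. It rose from 14.2% at scores of 540 to 599 to 50.1% at the cap of 1000. The score comes from the calls that the rule used, so the rise is a description.

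Seen from the 10 min list, 5078 of its 26732 regions (19.0%, 18.5 to 19.5%) overlapped a shared region. Of these 60 also reached a vehicle region and 32 also reached a TSS window. A further 1284 regions had the same calls but lay at a TSS and were left out. At a TSS, 54.5% (52.5 to 56.5%) of the TGFβ regions that the vehicle list lacked were in the 10 min list, against the 28.5% at distal sites.

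At the borders of the rule, the smallest overlap of a shared region with the 10 min list was 15 bp, and the nearest TGFβ-only region missed a 10 min region by 7 bp. In all, 162 of the 12748 TGFβ-only regions had a 10 min region within 1000 bp. The closest vehicle region to a shared region lay 3 bp away, and the smallest overlap with the vehicle list among regions of all 3 lists was 23 bp. Vehicle intervals under 150 bp were dropped by the rule. With these kept and neighbours merged in the same way, 65 shared regions overlapped a vehicle region. The shared region closest to a TSS had its centre 1106 bp away.

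Shared regions were intermediate in width and in score. Both measures come from the calls that the rule used and are given as a description. The score is the authors' scaled irreproducible discovery rate, from 540 to a cap of 1000, and is comparable within a list only. Shared regions spanned a median of 316 bp in the TGFβ list (quartiles 226 and 455), where their median score was 837 (709 and 992). The medians of TGFβ-only regions were lower, at 266 bp and 704, and regions of all 3 lists were wider and scored higher, with medians of 480 bp and 1000. A score at the cap was held by 24.0% of shared regions, 9.52% of TGFβ-only regions and 70.2% of regions of all 3 lists. Their calls in the 10 min list spanned a median of 373 bp (254 and 514) and scored a median of 666 (596 and 757), where regions of all 3 lists reached 861. The cap of that list was reached by 2.32% of shared regions and by 29.3% of regions of all 3 lists.

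The calls of both lists mostly covered the same DNA. Of the 5081 shared regions, 5079 met a single 10 min region, and the centre of 93.3% lay inside it. The median overlap was 263 bp, and the median share of the TGFβ width overlapped was 95.4%. The middle of the stretch in common lay a median of 5.5 bp from the centre of the TGFβ call. This offset is near 0 by construction where the TGFβ call lies wholly inside the 10 min call. In 61.3% the 10 min call was the wider, and in 37.9% the TGFβ call lay wholly inside it. Across regions, widths in the lists had a Spearman rank correlation of 0.473 and scores one of 0.193, a description over 5081 regions that share their libraries. The share of distal TGFβ regions absent from the vehicle list that were called at 10 min rose with width. It went from 21.9% (20.6 to 23.3%) at 150 to 199 bp to 51.6% (48.2 to 55.0%) at 700 bp or more. A wider region can meet the overlap rule more easily, so this rise follows in part from the rule and is a description.

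The widest shared region, chr1:156896196-156898569 (2374 bp), lay 49.4 kb from Ier5, an immediate-early response gene, and met a 10 min region of 241 bp. The next, chr3:21885010-21887372 (2363 bp) near Tbl1xr1, a subunit of the NCoR corepressor complex, also met a 10 min region of 241 bp. Both wide calls in the TGFβ list thus met a narrow call in the 10 min list.

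DNA sequence played no part in choosing the shared regions, so motif content could be compared between classes. Each motif was looked for on either strand, in windows reaching 200 bp to each side of the region's centre. Flanks of the same length, centred 2 kb away and outside any listed region, served as the local background. Differences between classes are in percentage points with 95% Newcombe intervals, which cover the counting of regions alone, and neighbouring regions are not independent. As a further description, the number of the 20 chromosomes on which the shared regions had the higher share is given.

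A CTCF match was found in 7.79% (7.09 to 8.56%) of shared regions, 396 of 5081, and in 0.329% of their flanks. TGFβ-only regions held it in 3.54%, regions of all 3 lists in 2.72% and regions of the vehicle and TGFβ lists in 3.17%. The shared regions were higher by 4.26 points than TGFβ-only regions (3.47 to 5.08) and by 5.07 points than regions of all 3 lists (4.28 to 5.91), on 19 of 20 chromosomes in both cases. Matches were centred, with 0.563 per kb within 50 bp of the centre and 0.00787 per kb at 800 to 1000 bp from it, a ratio of 71.5. Chromosome shares of shared regions with CTCF ran from 2.65% on the X to 11.1% on chromosome 19.

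Compared with the other shared regions, those with CTCF were narrower and more often within 10 kb of a protein-coding TSS. Their median width in the TGFβ list was 209.5 bp, against 328 bp for shared regions without CTCF, and their median score was 747 against 846. AP-1 accompanied CTCF in 10.6% (7.94 to 14.0%) and was found in 41.5% of shared regions without it, a difference of -30.9 points (-33.9 to -27.2). A protein-coding TSS lay within 10 kb of 37.1% and 29.3% respectively, a difference of 7.77 points (2.97 to 12.8). They also lay between genes more often, at 56.1% against 50.1%, a difference of 5.94 points (0.82 to 10.96). A vehicle region lay within 10 kb of 23.0% and 31.8%, a difference of -8.78 points (-12.9 to -4.20). In the Mettl2 window the CTCF match lay in a region of 270 bp, chr11:104985339-104985608, scoring 1000 for TGFβ and 934 at 10 min, 2.27 kb from the nearest protein-coding TSS. The Twf2 region, chr9:106114177-106114603, was intronic and scored 1000 and 901. Twf2 encodes twinfilin, an actin-binding protein.

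The CTCF share fell with the score in the TGFβ list. It was 14.0% (10.97 to 17.8%) among shared regions with TGFβ scores of 540 to 599. It was 6.40% at 800 to just under the cap and 3.12% (2.28 to 4.25%) at the cap. None of the 58 regions at the cap in both lists held a match, but the interval (0 to 6.21%) includes the share at the TGFβ cap. By the score in the 10 min list there was no such fall over the lower steps, with 7.62% (6.31 to 9.18%) at 540 to 599, 8.30% and 8.70% at the next 2 steps, 6.38% from 800 to under the cap and 2.54% (0.87 to 7.21%) at the cap. At each of the 5 score steps the shared regions had the higher share, with intervals that did not overlap those of TGFβ-only regions. Against regions of all 3 lists the shared regions had the larger value at each step, with intervals that overlapped at each step below the cap. The shares were 14.0% against 9.17% (5.06 to 16.1%) at 540 to 599 and 10.9% (9.09 to 12.9%) against 6.82% (4.90 to 9.42%) at 700 to 799. At the last step under the cap they were 6.40% (5.32 to 7.68%) against 4.47% (3.56 to 5.60%). The intervals were apart at the cap (3.12% against 1.54%, 1.25 to 1.89%). Overlapping intervals do not show equal shares, and intervals of the differences below the cap were not computed.

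The same search on the 10 min side, with windows at the centres of the 10 min regions, set the regions in common with the TGFβ list apart from those that the TGFβ list lacked. Distal 10 min regions absent from the vehicle list held CTCF in 7.92% where they met any region of the TGFβ list (5060 regions, of which 5004 overlapped a shared region) and in 15.6% (14.3 to 17.0%) where they did not (2801 regions), a difference of -7.71 points (-9.28 to -6.20). AP-1 went the other way, at 40.3% against 21.5%, a difference of 18.8 points (16.7 to 20.8). Distal 10 min regions of the vehicle list that the TGFβ list lacked held CTCF in 13.8% (10.7 to 17.6%) of 385, and those of all 3 lists in 2.72% of 8213.

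The SMAD box was searched as CAGACA and as the palindrome GTCTAGAC. A match was found in 36.5% (35.2 to 37.8%) of shared regions, close to the 34.5% of their flanks. TGFβ-only regions had it in 44.1%, so the shared regions were lower by 7.60 points (difference -7.60, -9.17 to -6.01), with the higher share on 1 of 20 chromosomes. Regions of all 3 lists had it in 36.6%, a difference of -0.09 points (-1.77 to 1.60). Matches showed no central peak in shared regions, with 1.26 per kb within 50 bp of the centre and 1.20 per kb at 800 to 1000 bp, whereas TGFβ-only regions went from 1.19 to 1.93 per kb, a ratio of 1.63. At least 2 SMAD boxes stood in 8.92% of shared regions, 4.29 points below TGFβ-only regions (difference -4.29, -5.26 to -3.30). The deficit against TGFβ-only regions was present at each score step and reached 42.6% (39.9 to 45.4%) against 57.2% (54.4 to 59.9%) at the cap. At the cap the shared regions were above the 38.3% of regions of all 3 lists, by 4.35 points (1.33 to 7.41).

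**Figure D2:**
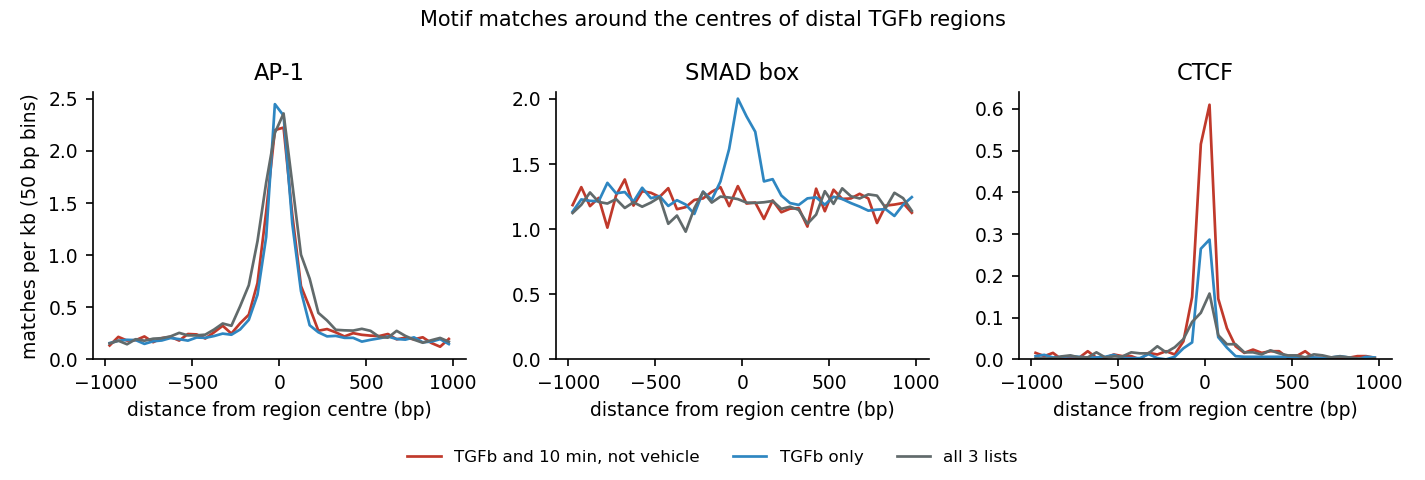
Matches per kb to AP-1, the SMAD box and CTCF in 50 bp bins, against the distance in bp from the centre of distal TGFβ regions, for shared regions and the 2 largest other classes. In shared regions AP-1 and CTCF were centred (2.21 and 0.563 per kb within 50 bp) and the SMAD box was flat (1.26 per kb), while TGFβ-only regions had a central SMAD box peak of 1.93 per kb.

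The second SMAD motif, the 5GC elements GGCGC and GGCCG, behaved differently. It was found in 28.2% (27.0 to 29.5%) of shared regions and in 18.7% of their flanks. The share was 7.70 points above TGFβ-only regions (6.29 to 9.13), on 20 of 20 chromosomes, and did not differ from regions of all 3 lists beyond counting error (-1.05, -2.62 to 0.54). CpG content moved with it, at means of 5.64 CpG per window in shared regions, 4.41 in TGFβ-only regions and 6.47 in regions of all 3 lists, and its part in the difference was not tested. The median GC content of the windows was 47.1%, 46.1% and 47.6%.

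Of the 6 motifs profiled around the centres, AP-1 (TGACTCA on either strand) had the most central matches in shared regions, 2.21 per kb, and it was found in 39.1% (37.8 to 40.5%) of shared regions and 7.03% of their flanks. It was 12.6 times as dense within 50 bp of the centre as at 800 to 1000 bp. TGFβ-only regions had nearly the same share, 39.3% (difference -0.19, -1.77 to 1.40), and regions of all 3 lists a higher one, 45.8% (difference -6.63, -8.35 to -4.91). These differences depended on which regions were set side by side. The AP-1 share of shared regions rose with the TGFβ score from 26.3% at 540 to 599 to 53.5% at the cap, and at each score step it was the larger in value than that of regions of all 3 lists, with overlapping intervals, up to 50.6% of the latter at the cap (difference 2.91, -0.18 to 5.98). Against TGFβ-only regions the shared regions had the smaller share at each of the 5 score steps, with intervals apart at 600 to 699 (27.7%, 24.7 to 31.0%, against 34.2%, 32.8 to 35.8%) and from 800 to under the cap (39.1%, 36.7 to 41.4%, against 47.2%, 45.3 to 49.1%), and overlapping at the other 3. They had the larger share among regions 300 to 500 bp wide (difference 4.08, 1.27 to 6.89). AP-1 and a SMAD box stood together in 15.0% of shared regions, 2.81 points below TGFβ-only regions (difference -2.81, -3.98 to -1.61).

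**Figure D3:**
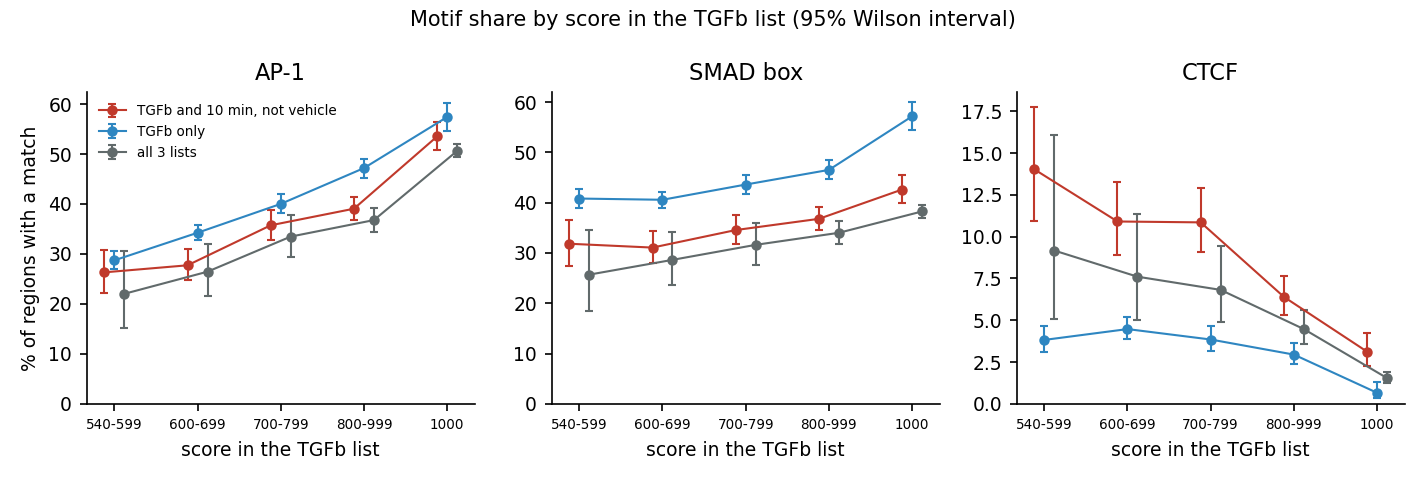
Percent of distal TGFβ regions with a match to AP-1, the SMAD box or CTCF within 200 bp of the centre (95% Wilson interval), by the score in the TGFβ list, for shared regions, TGFβ-only regions and regions of all 3 lists. The CTCF share of shared regions fell from 14.0% to 3.12% over the score steps, while that of AP-1 rose from 26.3% to 53.5%.

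TEAD factors, the DNA-binding partners of YAP and TAZ, bind ACATTCC. A match was found in 7.91% (7.20 to 8.69%) of shared regions, in 10.6% of TGFβ-only regions, 11.2% of regions of all 3 lists and 16.2% of regions of the vehicle and TGFβ lists. The shared regions were lower than each, by differences of -2.73 (-3.62 to -1.79), -3.33 (-4.33 to -2.31) and -8.25 points (-10.3 to -6.32) in that order. For the ETS motif (ACCGGAAGT with 1 mismatch at any position) the shares were 5.86%, 5.60% and 6.28%, with 3.69% in the flanks of shared regions. The differences of the shared regions to TGFβ-only regions and regions of all 3 lists were 0.26 (-0.48 to 1.05) and -0.41 (-1.23 to 0.44), not detectable at these numbers with this loose pattern. RUNX (AACCACA), bound by mammary RUNX1, lay between classes at 15.5%, 1.64 points above TGFβ-only regions (0.50 to 2.82) and below regions of all 3 lists (difference -1.77, -3.04 to -0.47). The E-box CAGGTG, read by SNAIL and ZEB repressors, was found in 26.3%, 3.11 points above TGFβ-only regions (1.71 to 4.54) and 3.07 above regions of all 3 lists (1.56 to 4.59), with 26.0% in the flanks of the shared regions themselves. Of the other motifs, FOX (TGTTTAC) and C/EBP (TTGCNNAA) were slightly above TGFβ-only regions, at 9.82% (difference 1.15, 0.22 to 2.13) and 20.4% (difference 1.36, 0.07 to 2.67), and the cAMP response element TGACGTCA was below them at 0.453% (difference -0.35, -0.57 to -0.08). For grainyhead-like factors, serum response factor, STAT, NFI and HNF1 the intervals of the differences to TGFβ-only regions and to regions of all 3 lists included 0.

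**Figure D4:**
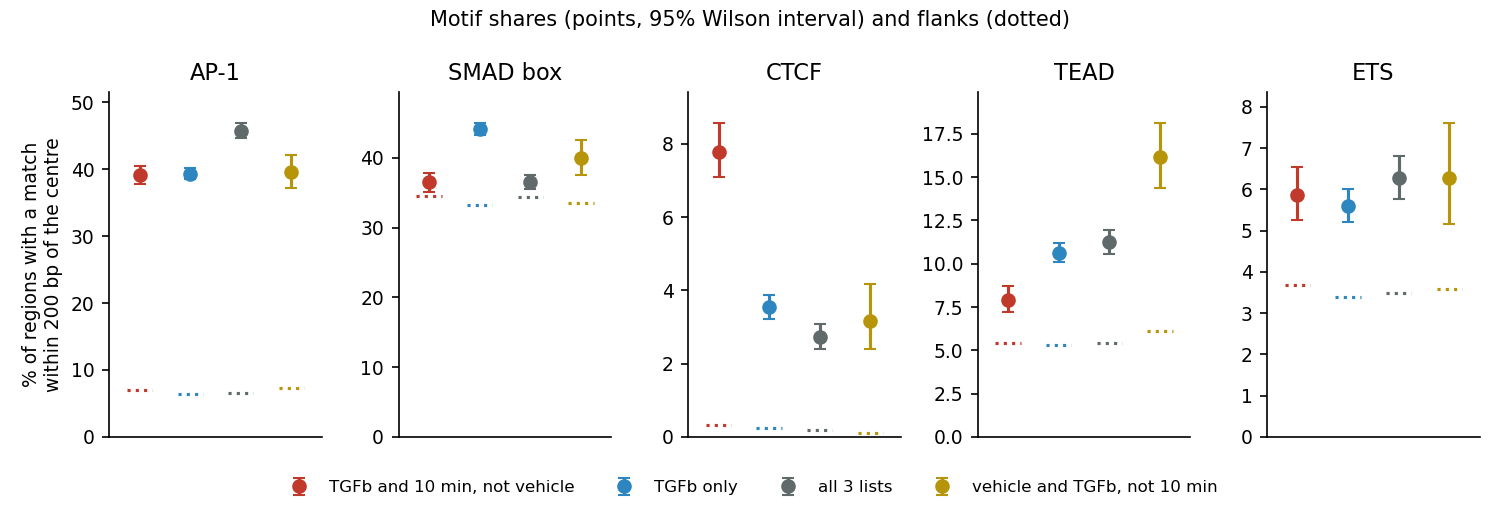
Percent of distal TGFβ regions with a match within 200 bp of the centre for 5 motifs (points with 95% Wilson intervals), by class of calls, with the share in flanking windows as dotted lines. Shared regions had the highest CTCF share (7.79%) and the lowest TEAD share (7.91%) of the 4 classes, and a SMAD box share of 36.5% close to their flanks.

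In position, the shared regions were nearer to genes than other distal regions. Of the shared regions, 44.1% lay in introns of protein-coding genes, 50.6% between genes, 0.964% in coding exons and 1.36% in untranslated exons. The median distance to a protein-coding TSS was 21.1 kb (quartiles 8.01 and 55.1), against 28.1 kb for TGFβ-only regions and 25.4 kb for regions of all 3 lists. Within 10 kb lay 30.0%, 5.53 points above TGFβ-only regions (4.07 to 7.00, higher on 17 of 20 chromosomes) and 4.44 above regions of all 3 lists (2.88 to 6.02, on 16). Beyond 50 kb lay 27.3%, with differences of -8.39 (-9.86 to -6.90) and -3.90 points (-5.47 to -2.31). The nearest gene had a promoter region in the vehicle list for 56.5% of shared regions and 51.7% of TGFβ-only regions, a difference of 4.87 points (3.25 to 6.48), while regions of all 3 lists reached 57.5%.

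**Figure D5:**
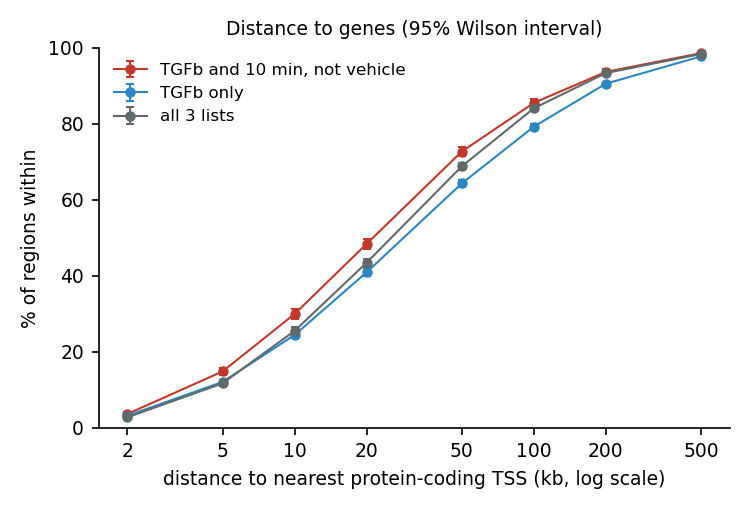
Cumulative percent of distal TGFβ regions (95% Wilson interval) within a given distance in kb, on a log axis, of the nearest protein-coding TSS. The curve of the shared regions lay above the others at 10 kb (30.0%) and at 50 kb (72.7%).

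Shared regions also lay near regions that the vehicle list already held. The nearest vehicle region was a median of 19.2 kb away, against 25.6 kb for TGFβ-only regions, and 31.1% (29.8 to 32.4%) against 25.3% (24.5 to 26.0%) had one within 10 kb. The nearest other region of the TGFβ list was a median of 9.76 kb away. This median was 12.3 kb for TGFβ-only regions and 9.08 kb for regions of all 3 lists. Of the shared regions, 4522 had no other shared region within 10 kb, and the other 559 fell into 269 clusters of 2 or more. The largest cluster held 4. By chromosome, the shared regions were 15.7% (14.1 to 17.5%) of distal TGFβ regions on chromosome 3 and 23.0% (21.0 to 25.2%) on chromosome 11. Their density ran from 0.678 per Mb on the X to 3.24 per Mb on chromosome 19. As shares of distal TGFβ regions these chromosomes had 16.9% (14.2 to 19.9%) and 19.0% (16.7 to 21.4%), near the 18.4% over all chromosomes.

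By nearest protein-coding TSS, 3654 of 22208 genes (16.5%) had a shared region, and 2719 of these had 1. Only 41 genes had 5 or more, and these held 233 regions (4.59%). Pde4d, a cAMP phosphodiesterase, led with 9 of its 33 distal TGFβ regions. Arhgap26, a GTPase-activating protein, had 8 of 13 and Smad3 8 of 15. Cited2, a transcriptional coregulator, had 7 of 25, Kalrn, a guanine nucleotide exchange factor, 7 of 17 and Lrrc4c, a netrin-G ligand, 7 of 23. With 6 each followed Bre, Ccnd1, Dio3, Jag1, Map2k6, Nrg1, Nt5c2, Rbfox2 and Zfp608, and with 5 each Cpeb2, Rgnef, Agpat9 and Ank3. Among these were the Notch ligand Jag1 (21 distal TGFβ regions), the p38 kinase kinase Map2k6 (13), the ERBB ligand Nrg1 (16) and the splicing regulator Rbfox2 (12). Genes with long introns or distant neighbours can collect more regions by this rule, and the counts say nothing of which gene a region acts on.

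Smad3, a receptor-activated SMAD of the TGFβ pathway, had 8 shared, 5 TGFβ-only and 2 regions of all 3 lists. Its shared regions lay between positions 63522356 and 63641788 of chromosome 9 (mm9), 6 in introns and 2 between genes. Their TGFβ scores ran from 699 to 1000 and their 10 min scores from 551 to 843, so all 8 were below the 10 min cap. The highest sum of scores belonged to chr9:63641599-63641788, 190 bp and 35.9 kb from the nearest TSS, where the TGFβ call scored 1000 and the 10 min call 814. This is the region whose window is printed above. AP-1 was found in 6 of the 8, the SMAD box in 2 and CTCF in none.

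Ccnd1, which encodes cyclin D1, had 6 shared regions of 9 distal TGFβ regions, 1 TGFβ-only region and 2 of all 3 lists. They were spread from chr7:152115383-152115942, in an untranslated exon, to chr7:152297437-152297904, 172 kb from the nearest TSS. The region with the highest sum of scores, chr7:152292073-152293739, was 1667 bp wide and scored 1000 and 962, without an AP-1 match in its window. AP-1 was found in 4 of the 6.

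Gene lists with roles in the TGFβ response and in epithelial identity were counted in the same way, against 18.4% over all protein-coding genes. These lists were chosen with results of these data known, and the counts are a description. For each of the 15 lists, the 95% interval of the share of distal TGFβ regions that were shared regions included 18.4%.

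The feedback genes that restrain or modulate TGFβ signalling had 27 shared regions among 123 distal TGFβ regions (22.0%, 15.5 to 30.1%), at 12 of 18 genes. Over all protein-coding genes 16.5% had a shared region. The feedback genes had a median of 5 distal TGFβ regions, against 0 over all protein-coding genes, so these gene shares are not directly comparable. Besides Cited2, Ltbp1, a latent TGFβ binding protein, had 5 of 21, Tgfbr3, the coreceptor betaglycan, 3 of 5, and Pmepa1, which sequesters receptor-activated SMADs, 2 of 10. The intronic Pmepa1 region chr2:173091814-173092452 had a TGFβ score of 824 and a 10 min score of 1000. Ligands, receptors and SMADs had 25 of 131 (19.1%, 13.3 to 26.7%), with Smad1, a SMAD of the BMP branch, at 4 of 8, the activin subunit Inhba at 3 of 16 and the activin receptor Acvr2a at 2 of 13.

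EMT transcription factors had 18 of 86 (20.9%, 13.7 to 30.7%). Sox4 had 4 of 15, the E-box factor Tcf4 3 of 8, and the repressors of epithelial genes Zeb1 3 of 5 and Zeb2 3 of 19. AP-1 family genes had 8 of 46 (17.4%, 9.09 to 30.7%), of which Maf had 4 of 16 and Jun, Fosb and Batf 1 each. Mesenchymal and contractile genes had 11 of 57 (19.3%, 11.1 to 31.3%), with Myh9, a nonmuscle myosin heavy chain, at 2 of 9 and tropomyosin Tpm1 at 2 of 8. The plasminogen and metalloproteinase genes had 4 of 44 (9.09%, 3.59 to 21.2%), among them 1 each at the metalloproteinase gene Adam12 and the plasminogen activator genes Plat and Plau.

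Cell cycle genes of the cytostatic response had 19 of 80 (23.8%, 15.8 to 34.1%), where besides Ccnd1 the Cdk inhibitor Cdkn2b had 3 of 11, Cdkn2a 2 of 2, and Myc 3 of 34. MAPK immediate-early and feedback genes had 19 of 88 (21.6%, 14.3 to 31.3%), with the phosphatases Dusp4 at 4 of 11 and Dusp5 at 2 of 6, Epha2 at 2 of 5 and the EGFR inhibitor Errfi1 at 2 of 5.

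Epithelial junction genes had 15 of 63 (23.8%, 15.0 to 35.6%). The adherens junction genes Ctnnb1 and Jup had 4 of 7 and 2 of 2, and the tight junction genes Tjp1 and Cldn4 3 of 7 and 2 of 5. Keratin genes had 4 of 17 (23.5%, 9.56 to 47.3%), 1 each at Krt8, Krt14, Krt19 and Krt80. Mammary identity factors had 13 of 78 (16.7%, 10.0 to 26.5%), with Gata3 and Runx1 at 3 of 15 and 3 of 18 and Grhl2 at 2 of 7. Laminins and collagens had 14 of 73 (19.2%, 11.8 to 29.7%), with the basement membrane collagen Col4a2 at 2 of 6, and integrins 8 of 61 (13.1%, 6.80 to 23.8%), with Itga6 and Itgb5 at 2 of 6 each. YAP and TEAD genes and targets had 5 of 57 (8.77%, 3.81 to 18.9%), at Tead4, Wwtr1 and Cyr61, and ETS family genes 8 of 70 (11.4%, 5.91 to 21.0%), of which Ets2 had 3 of 16.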

How the data were processed

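ATAC-seq libraries of NMuMG cells were represented by 3 deposited peak lists with 1 line per summit. Per the study's methods, the authors ran the ENCODE ATAC-seq pipeline on mm9, called peaks with MACS2 (version 2.1.2 in the submitters' processing notes) and kept them by IDR. A Tn5 shift is described for footprints only. The score in the deposited lists is the authors' scaled IDR, and what served as replicates behind it was not settled. The deposited lists carry no depth, read totals stated with the study were not used here, and depth can limit which regions were called.

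Lists were refined and classified with Python 3.11.15, numpy 2.4.6 and pandas as described in the results, using GENCODE vM1, and a region took its highest score. Motifs were letter patterns searched in mm9, some with positions open to more than 1 base, and with 1 mismatch for ETS. The CTCF pattern allowed alternative letters, as the printed Mettl2 and Twf2 matches show, and the CTCF shares depend on that pattern. Intervals are 95% Wilson (scipy) and Newcombe intervals, and scripts were tested on simulated data. No p-value was computed. Genes were named as the 20 with the most shared regions and, in each gene list, up to 4 with the most shared regions. Printed windows were to come from regions at the cap in both lists, first from genes of the TGFβ, AP-1, EMT, mesenchymal and plasminogen lists. None of those genes had such a region, so the windows came from another named gene and from regions chosen after their values were seen. Of 250 listed symbols 250 matched, 4 through older symbols in the RefSeq table. The regions, lists and motifs were chosen with earlier results of these data known. Alternatives covered width, merging, overlap, list length, TSS window, motif window, score and GC content. A few genes that these rules name are not reported here.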

Additional observations from a re-analysis of the deposited data

How the results depend on the processing

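The lists have no replicates, so the values carry counting error alone. No paired analysis was possible because the 3 lists hold no replicates. The number of shared regions was 3198 with a minimum width of 300 bp, 186 with TGFβ and 10 min peaks at or above the median score of their list, and 1115 with lists of equal length. The share in the 10 min list was then 34.7%, 6.08% and 27.7%. It was 26.6% when the centre had to lie inside the 10 min region and 27.7% with TSS windows of 5000 bp. Motif differences were not computed with the minimum width of 300 bp, the median score, the centre rule or other TSS windows. The CTCF differences and the SMAD box difference to TGFβ-only regions kept their sign under every alternative in which they were computed. Their intervals excluded 0 in each of these.

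The AP-1 difference to TGFβ-only regions changed sign with windows of 500 bp (0.83 points), windows on the shared part (1.60), GC content of 45 to 50% (0.31) or above 50% (1.31), widths of 300 to 500 bp (4.08) and merging of touching intervals only (0.68), and was -4.91 with lists of equal length. That to regions of all 3 lists was 2.91 at the score cap and -0.96 with lists of equal length. The SMAD box difference to regions of all 3 lists, near 0, was 0.55 and 0.91 with windows of 100 and 500 bp, 0.25 and 0.47 at GC content below 45% and above 50%, 4.35 at the cap, 2.13 at 300 to 500 bp, 3.08 with lists of equal length and 0.24 with touching intervals merged. For TEAD the difference to TGFβ-only regions was -1.22 at GC content above 50%. The ETS difference was -0.71 to TGFβ-only regions at GC content below 45%, and to regions of all 3 lists 0.18 with windows of 100 bp, 1.17 at GC content of 45 to 50% and 0.0021 at 300 to 500 bp. With TSS windows of 5000 bp, shared regions lay between genes less often than TGFβ-only regions (difference -2.36). With touching intervals merged, median widths were 295, 261 and 426 bp for shared, TGFβ-only and all-list regions, and the median score of shared regions was 828.5. The causes were not tested. Motif comparisons with lists of equal length, touching intervals merged or no vehicle region within 1000 bp were added after the data were seen.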

Other observations

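A count over all 2080 words of 6 letters, strands joined, within 200 bp of the centre gave a description that did not start from named motifs. CAGACA, the letters of the SMAD box, was the word whose share was lowest in shared regions relative to TGFβ-only regions, at 36.3% against 43.4% (difference -7.14 points). The next was AGACAT, at 23.1% against 29.0%. CCTGGC and GCCACC were highest relative to TGFβ-only regions, at 36.2% against 31.2% and 27.0% against 22.2%. Relative to regions of all 3 lists the lowest was GAGTCA, part of the AP-1 motif, at 50.1% against 55.8%, and the highest AGGTGG, at 29.4% against 25.1%. Words overlap one another and follow base composition, and no test was made.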
